A study of Mus musculus with 12 samples.

Results

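The carriers that move amino acids, and the transmitters made from them, across cell membranes were examined in adrenal glands of mice carrying extra copies of Ftz-F1. That gene, now named Nr5a1, encodes the nuclear receptor SF-1, which controls steroid-producing genes of the adrenal cortex. Members were all probes whose gene symbol began with Slc1a, Slc3a, Slc6a, Slc7a, Slc36a, Slc38a or Slc43a and then a number. This gave 69 of 25344 probes and 62 gene symbols, and no measured value entered the choice. Of the 62 symbols, 61 had enough values for testing among 21513 features (genes, and probes without a single gene). The exception, Slc6a7, which carries proline, was measured on both arrays of only 2 pairs, at 0.27 in pair 11 and -0.17 in pair 3.

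Each transgenic mouse was compared on 2-colour arrays with a wild-type littermate of its own sex and age, and the dyes were exchanged on a second array of the pair. The pairs are named by the label number of the transgenic mouse. Pairs 11 (male), 13 (male) and 15 (female) were 10 days old and carried 1 copy of the YAC transgene, and pairs 1 (male), 3 (male) and 5 (female) were 4 months old and carried 2 copies. All transgenic mice came from a single line, so effects of the extra copies and of the place of insertion cannot be told apart, and age and copy number also cannot be told apart. The 12 arrays make 6 pairs, 3 per group, and the 2 arrays of a pair count as 1 replicate. Arrays of one dye orientation also share the date in their descriptions, so dye orientation and that date cannot be told apart.

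Every value below is a log2 ratio between the transgenic and the wild-type sample after removal of the signal-dependent dye trend, with the sign as deposited. The labels do not give which genotype is the numerator, so a positive value means only that a gene moved the same way as other positive values, and with the sign turned every direction below turns too. Once the mean of each dye orientation was removed, the 2 arrays of a pair had correlations across probes from 0.23 to 0.65. Arrays of different pairs gave -0.27 to 0.12. Removing these means lowers the values between pairs where those within pairs are positive, so part of this contrast is built in. In the values as deposited both were negative, from -0.50 to -0.10 within pairs and from -0.62 to -0.24 between them. After removal of the dye trend alone, both arrays of a pair shared a sign for 51.2% of values over all features. The transgene's own gene, Nr5a1, was at -0.57, -0.65 and -0.79 in pairs 11, 13 and 15 and at -0.46, 0.11 and -0.22 in pairs 1, 3 and 5. Its mean was -0.43 (SE 0.09, adjusted p = 0.104 in limma), and it does not settle the direction. Between 4.30% and 6.59% of spots per array were empty. Signals of the member probes ran from 69.7 to 3097 arbitrary units, none came close to saturation of the scanner, and 65 of the 69 probes were measured on all 12 arrays. The number of pairs limits the precision, since ratios carry no counting depth. In whole-gland RNA, a change in the number of cells of a type and a change in RNA per cell cannot be told apart.

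The families divide the work of amino acid transport. Slc1 proteins take up glutamate and small neutral amino acids with sodium. Slc6 proteins use sodium and chloride to take up monoamines, GABA, glycine, taurine, creatine and neutral amino acids. Slc7 proteins are cationic amino acid carriers or the light subunits of heteromeric exchangers, which reach the membrane with a heavy subunit of the Slc3 family. Slc36 proteins are proton-coupled and partly lysosomal, Slc38 proteins carry glutamine and other neutral amino acids with sodium, and Slc43 proteins work without sodium. In the adrenal medulla, which arises from the neural crest, monoamine carriers return released transmitter to chromaffin cells, whereas most of the other families serve nutrition and redox balance of many cell types.

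Upstream sequences are shown for members on which the results turn, or which held a motif searched. They come from RefSeq for GRCm38.p6 and cover 250 bases before to 50 after an annotated start, or a part of that window. A window was found for 46 of the 62 member symbols, 67 windows in all. Whole windows follow for Slc38a5 and Slc7a8, the members with the smallest p for the difference between ages and over all pairs, with GC boxes (GGGCGG on either strand) in capitals. The first lies at chrX:8271131-8271430 on the plus strand and the second at chr14:54781837-54782136 on the minus strand.
Slc38a5: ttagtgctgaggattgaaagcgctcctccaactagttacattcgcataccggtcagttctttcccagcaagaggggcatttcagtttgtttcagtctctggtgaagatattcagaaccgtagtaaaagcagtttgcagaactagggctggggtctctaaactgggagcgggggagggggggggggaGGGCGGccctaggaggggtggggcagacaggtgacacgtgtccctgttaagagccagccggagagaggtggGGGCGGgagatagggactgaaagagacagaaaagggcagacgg
Slc7a8: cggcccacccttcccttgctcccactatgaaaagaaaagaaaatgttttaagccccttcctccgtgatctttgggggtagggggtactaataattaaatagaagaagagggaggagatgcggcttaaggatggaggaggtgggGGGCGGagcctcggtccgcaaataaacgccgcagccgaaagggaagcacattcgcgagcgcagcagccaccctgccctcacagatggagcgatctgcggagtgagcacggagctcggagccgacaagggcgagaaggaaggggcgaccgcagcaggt
Neither window held the SF-1 site CAAGGTCA on either strand, which says only that these letters are not there. Of the 67 member windows, 2 (2.99%) held it, against 1.56% of the 32851 windows of all genes. They belonged to Slc6a11, which carries GABA, with 2 matches (chr6:114131007-114131080, plus strand, shown), and to the long noncoding RNA Slc36a1os.
Slc6a11: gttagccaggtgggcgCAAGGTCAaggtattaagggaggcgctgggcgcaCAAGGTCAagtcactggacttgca
The amino acid response element core TGATGCAA, which ATF4 binds during amino acid shortage, stood in 4 member windows (5.97%, against 0.895% of all windows), those of Slc1a4, Slc7a7 and Slc7a11. The Slc7a7 windows overlap and hold the same match, so that site is counted more than once in this share. The window part of Slc7a11 (chr3:50443637-50443695, minus strand) holds the core once on each strand and is shown with both in capitals.
Slc7a11: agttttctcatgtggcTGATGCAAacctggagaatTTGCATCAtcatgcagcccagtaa
GC boxes were in 35 of the 67 member windows (52.2%, against 35.7%) and TATAAA in 6 (8.96%, against 13.6%). The overlapping windows of Slc7a7 share a GC box as well, and so do those of Slc7a6. These motifs share no letters with each other in the windows shown. A match is a run of letters and no measured site.

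Across all 6 pairs no transporter passed the adjusted p of 0.05 in limma (0 of 61, where 0.0558% of all features, 12 of 21513, did). When all 12 arrays were fitted with a dye term and the pair as a random block, Slc6a4 (adjusted p = 0.0204), Slc7a8 (0.0211) and Slc6a6 (0.0256) passed, as did 3.61% of all features. The members closest to it were Slc7a8 and Slc7a5, which carry large neutral amino acids, the serotonin carrier gene Slc6a4, the taurine carrier gene Slc6a6, Slc6a17 and Slc43a3. At an unadjusted p under 0.05 there were 7 members (11.5%), against 15% of all features. Of these 3 were positive and 4 negative, where 7.52% and 7.45% of all features were. Of the 61 means 28 were positive (45.9%, against 47.1% of all features). The median of the members was -0.01, as was that of all features, and the median size regardless of sign was 0.072 against 0.097. None of the 61 had a mean of 0.5 or more in size, against 2.21% of all features. The same sign in all 6 pairs occurred in 6 of 58 members with a value in each pair (10.3%), against 10.4% of all features. They were Slc43a3, Slc6a17, Slc6a21 and Slc7a15, all positive (5.67% of all features), and Slc7a5 and Slc7a8, both negative (4.75%). Both arrays of a pair shared a sign in all 6 pairs of Slc7a8 and in 4 each of Slc43a3 and Slc6a17. They did so in 3 each of Slc7a15 and Slc7a5, and in 1 of Slc6a21. The arrays of Slc6a21 had means of -0.26 with the transgenic sample in Cy3 and 0.42 in Cy5. The families therefore stood near the background in number, size and balance of signs.

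**Figure D1:**
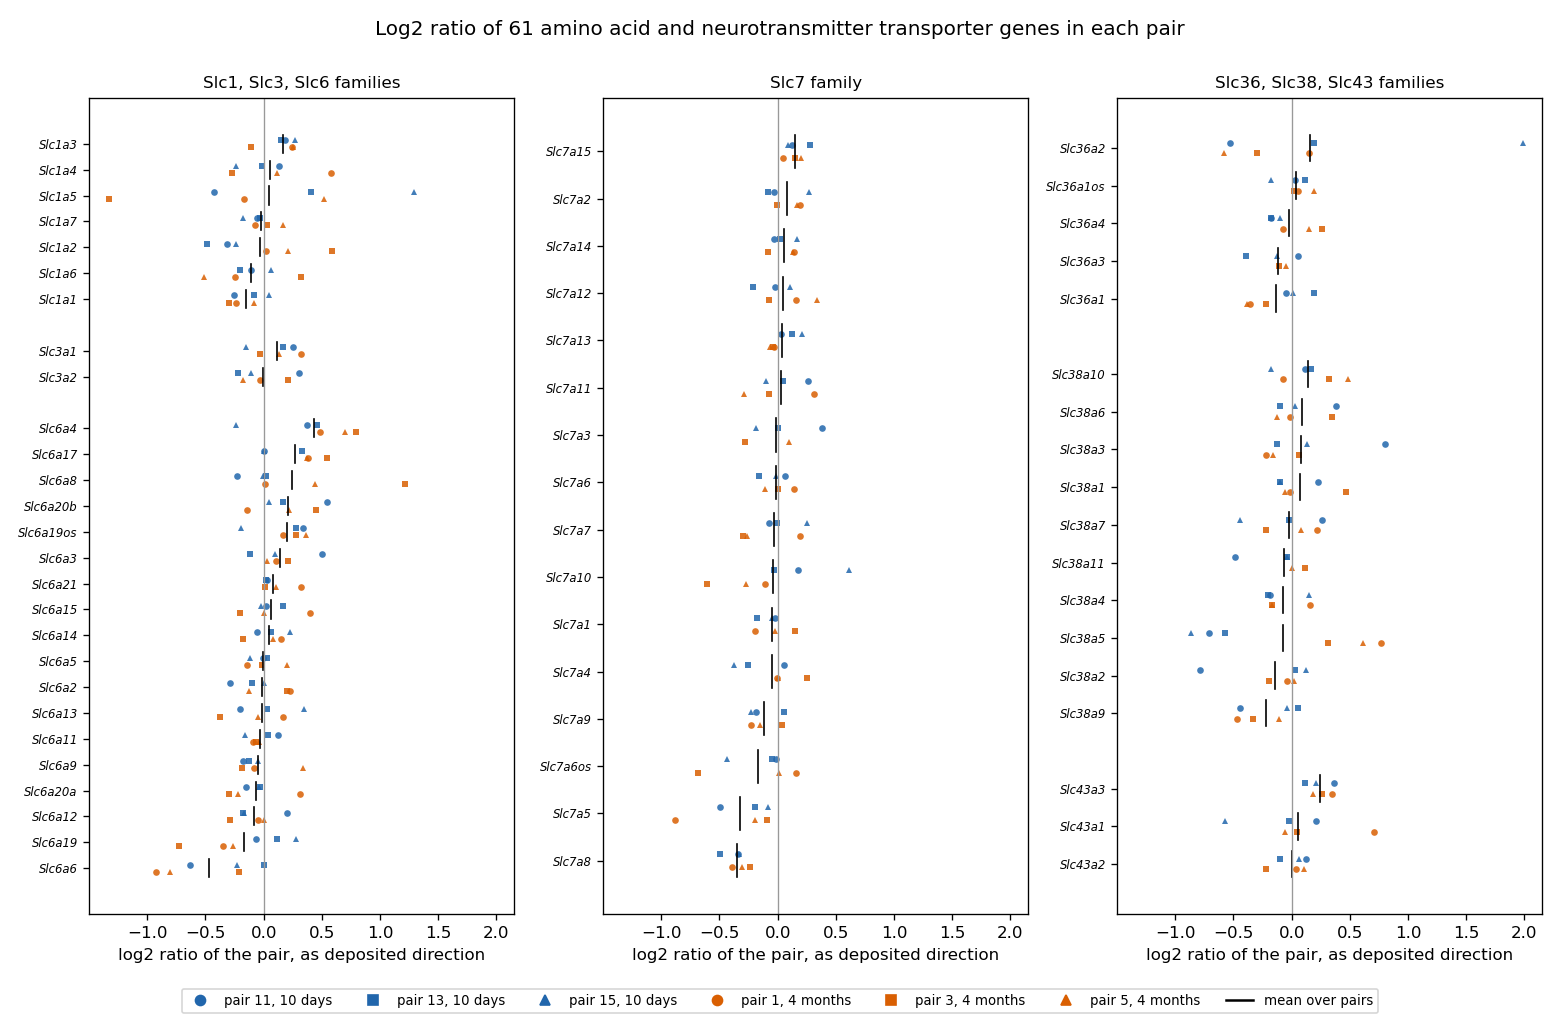
Log2 ratio of each of the 61 tested transporter genes in each of the 6 pairs, after removal of the dye trend and with the sign as deposited; rows are genes grouped by family, points are pairs, colours mark the age, black bars the mean over pairs, and the axis is in log2 units. Most points lie within 0.5 of 0, Slc36a2 in pair 15 reaches 1.99, and Slc38a5 has its 10-day and 4-month pairs on opposite sides of 0.

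Slc38a5 had the clearest pattern by age group. It encodes a sodium-coupled carrier of glutamine, histidine and serine that exchanges protons. It was at -0.71 in pair 11, -0.58 in pair 13 and -0.86 in pair 15, and at 0.77 in pair 1, 0.31 in pair 3 and 0.62 in pair 5. The groups do not overlap, and all 10-day pairs are negative and all 4-month pairs positive. The mean was -0.72 ± 0.14 (SD, n = 3) at 10 days and 0.57 ± 0.23 (SD, n = 3) at 4 months. The difference of 1.28 (SE 0.17, 95% interval 0.89 to 1.67) ranked first by p among all 21513 features in limma, yet its adjusted p was 0.933. All 6 arrays at 10 days were negative, from -1.07 to -0.44. At 4 months 5 of 6 arrays were positive. In pair 1 the array with the transgenic sample in Cy3 gave -0.03 and its dye swap 1.56, so that value rests on 1 array. Without pair 1 the difference was 1.18. Slc38a5 is also known from developing red cells, and the median of 6 erythroid markers was -0.28, -0.92 and 0.28 in pairs 11, 13 and 15 and -0.12, -0.03 and 0.15 in pairs 1, 3 and 5. Their part in the result was not tested.

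**Figure D2:**
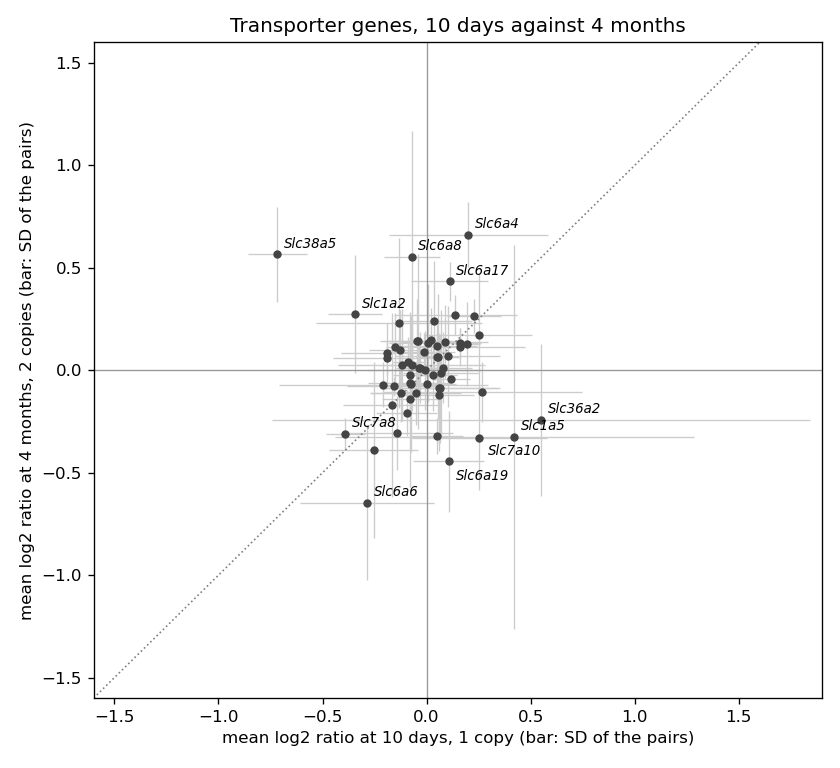
Mean log2 ratio at 4 months (2 copies, 3 pairs, vertical axis) against the mean at 10 days (1 copy, 3 pairs, horizontal axis) for each tested transporter, sign as deposited, with bars for the SD of the pairs. Slc38a5 lies far from the line of equal values at -0.72 and 0.57, while Slc7a8 lies near it at -0.39 and -0.31.

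Among the 10 tested Slc38 genes, Slc38a5 included, the difference of 4 months minus 10 days was positive for 7 and negative for 3, with a median of 0.11 against 0.00 for all features. Slc38a11, chosen after its values were seen, was at -0.49, -0.04 and -0.04 in pairs 11, 13 and 15 and at 0.12 and 0.00 in pairs 3 and 5, with no value in pair 1. Over all pairs 4 means of the family were positive and 6 negative, with a median of -0.04. Slc38a9, a lysosomal protein that senses arginine for mTORC1, was at -0.45, 0.06 and -0.04 in pairs 11, 13 and 15 and at -0.47, -0.34 and -0.11 in pairs 1, 3 and 5. It was negative on 11 of 12 arrays, with a mean of -0.22 (SE 0.09, adjusted p = 0.315 in limma; -0.15 without pair 11), and both its probes were negative, at -0.20 and -0.25. Slc38a1, Slc38a2 and Slc38a4, sodium-coupled carriers of small neutral amino acids, had means of 0.07 (SE 0.09), -0.14 (SE 0.12) and -0.07 (SE 0.08). Slc38a3, the glutamine carrier of liver, had 0.08 (SE 0.12).

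Pair 11 stood apart for a pair of these genes. Slc38a3 was at 0.80 in pair 11 and from -0.22 to 0.13 in the other 5. Slc38a2 was at -0.79 in pair 11 and from -0.19 to 0.13 in the others, where 1 of its probes gave -1.69 and -1.45 on the 2 arrays and the other 0.19 and -0.20. In the same pair the median of 14 hepatocyte markers was 1.42, against -0.01 to 0.30 in the others, with Alb (albumin) at 6.73 and Ahsg at 5.56. The median of the 61 tested members in pair 11 was -0.005, 30 of them were positive, and Slc38a4 was at -0.18. A median over all members cannot speak for any single gene. The part of hepatocytes in the Slc38a3 value was not tested.

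Slc7a8 was negative on every array. It encodes the light subunit of an exchanger of large neutral amino acids. It was at -0.34, -0.50 and -0.33 in pairs 11, 13 and 15 and at -0.39, -0.24 and -0.30 in pairs 1, 3 and 5. It was the only member with the same sign on all 12 arrays, from -0.66 to -0.08, which 1.71% of all features with all pairs also had, 0.437% on the negative side. Its mean was -0.35 (SE 0.07, adjusted p = 0.0960 in limma), at rank 199 by p among all features. At 10 days it was at -0.39 ± 0.09 and at 4 months at -0.31 ± 0.08 (SD, n = 3 each), a difference of 0.08 (95% interval -0.23 to 0.39).

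Slc7a5, the light subunit of the related exchanger found in dividing cells, was negative in 6 of 6 pairs but uneven. It was at -0.49, -0.19 and -0.08 in pairs 11, 13 and 15 and at -0.88, -0.09 and -0.20 in pairs 1, 3 and 5. Its mean was -0.32 (SE 0.12, adjusted p = 0.264 in limma), and -0.20 without pair 1. With the transgenic sample in Cy3 the mean of its arrays was -0.08, and in Cy5 it was -0.56. Only 3 of its 6 pairs had the same sign on both arrays. Slc3a2, the heavy subunit that both need to reach the membrane, had pair values from -0.22 to 0.30 and a mean of -0.00 (95% interval -0.22 to 0.21). Slc3a1, the heavy subunit of the kidney cystine carrier, had 0.11 (SE 0.08), and its light subunit Slc7a9 had -0.12 (SE 0.08). The further light subunits Slc7a7, which exports cationic amino acids, and Slc7a11, which imports cystine for glutathione, had -0.03 (SE 0.09) and 0.03 (SE 0.10). Of the 16 Slc7 members 6 means were positive and 10 negative, with a median of -0.02.

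The monoamine carriers differed from each other. Slc6a4, the serotonin carrier, was at 0.37, 0.46 and -0.24 in pairs 11, 13 and 15 and at 0.49, 0.80 and 0.70 in pairs 1, 3 and 5. It was positive in 5 of 6 pairs and on 10 of 12 arrays, and both arrays of every pair had the same sign. Its mean was 0.43 (SE 0.11, adjusted p = 0.144 in limma), and at 4 months it was 0.66 ± 0.16 (SD, n = 3), adjusted p = 0.233. Slc6a2, the noradrenaline carrier, was at -0.29, -0.10 and 0.00 in pairs 11, 13 and 15 and at 0.23, 0.20 and -0.12 in pairs 1, 3 and 5, with a mean of -0.01 (95% interval -0.20 to 0.17). Slc6a2 with the tested carriers of dopamine, GABA and glycine (Slc6a3, Slc6a5, Slc6a9, Slc6a11, Slc6a12 and Slc6a13) made 7 genes with means from -0.08 to 0.14 and 41 of 42 pair values under 0.5 in size.

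Slc6a17, a neuronal carrier of neutral amino acids on synaptic vesicles, was at 0.00, 0.33 and 0.01 in pairs 11, 13 and 15 and at 0.38, 0.54 and 0.38 in pairs 1, 3 and 5. The 4-month pairs lie above all 10-day pairs. Its mean was 0.27 (SE 0.08, adjusted p = 0.176 in limma), and the difference between ages was 0.32 (SE 0.15, adjusted p = 0.933). Slc6a15, a related carrier of branched-chain amino acids in neurons, had 0.06 (SE 0.09). Beside Slc6a4 and Slc6a17, the 17 chromaffin cell markers had medians of -0.05, 0.34 and 0.74 in pairs 11, 13 and 15 and of 0.20, 0.58 and 0.60 in pairs 1, 3 and 5. Of these 17, 15 had a positive mean. The lowest Slc6a4 value fell in pair 15, where the marker median was highest. The part of chromaffin cells in these ratios was not tested.

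Slc6a6, which takes up taurine, was at -0.64, 0.00 and -0.23 in pairs 11, 13 and 15 and at -0.92, -0.22 and -0.80 in pairs 1, 3 and 5. Its mean of -0.47 (SE 0.12, adjusted p = 0.153 in limma) was the largest in size among the members over all pairs, and 10 of 12 arrays were negative. Slc6a8, which takes up creatine, was at -0.23, 0.02 and -0.01 in pairs 11, 13 and 15 and at 0.01, 1.22 and 0.44 in pairs 1, 3 and 5, so its 4-month mean of 0.55 ± 0.61 (SD, n = 3) rests largely on pair 3, without which it was 0.22. Over all pairs the Slc6a8 arrays had means of 0.55 with the transgenic sample in Cy3 and -0.07 in Cy5. Only 2 of its 6 pairs had the same sign on both arrays, and pair 5 gave 0.94 and -0.06. Slc6a19, a neutral amino acid carrier of kidney and intestine, was at -0.07, 0.11 and 0.27 in pairs 11, 13 and 15 and at -0.35, -0.72 and -0.26 in pairs 1, 3 and 5. The 4-month pairs lie below all 10-day pairs, and the difference was -0.55 (SE 0.18, adjusted p = 0.933 in limma). The sign of its values depended on the dye. Over all pairs its arrays had means of 0.13 with the transgenic sample in Cy3 and -0.46 in Cy5. Only 2 of its 6 pairs had the same sign on both arrays. Kidney tubule markers, 15 genes, had medians from -0.05 to 0.01 in the 6 pairs. The part of kidney tissue in the Slc6a19 values was not tested. The noncoding Slc6a19os had a mean of 0.20 (SE 0.09), but its 2 dye orientations gave 0.53 and -0.12. Slc6a20b, from a pair of near-identical genes whose signals may mix, had 0.21 (SE 0.10), and its neighbour Slc6a20a -0.07 (SE 0.09). Both also depended on the dye. The arrays of Slc6a20b had means of -0.06 with the transgenic sample in Cy3 and 0.49 in Cy5, and those of Slc6a20a -0.41 and 0.27.

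Among the glutamate carriers only Slc1a2 separated the ages. It encodes the main glutamate uptake carrier of astrocytes. It was at -0.31, -0.48 and -0.24 in pairs 11, 13 and 15 and at 0.02, 0.59 and 0.21 in pairs 1, 3 and 5, a difference of 0.62 (SE 0.18, adjusted p = 0.933 in limma). Slc1a1, the neuronal and epithelial glutamate carrier, was negative in 5 of 6 pairs with a mean of -0.15 (SE 0.07). Slc1a3, the glial one, had 0.16 (SE 0.08), but its 2 probes gave -0.28 and 0.54 at 4 months. Slc1a4, a carrier of alanine, serine and cysteine, had 0.05 (SE 0.11).

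Slc1a5, the glutamine carrier of proliferating cells, had the same mean of 0.05 (SE 0.27) from widely spread pairs. It was at -0.43, 0.41 and 1.29 in pairs 11, 13 and 15 and at -0.17, -1.33 and 0.52 in pairs 1, 3 and 5. Both arrays of each pair had the same sign. Its highest and lowest pairs were also those of the macrophage markers. In pairs 13 and 5, where Slc1a5 was at 0.41 and 0.52, the macrophage median was -0.10 and -0.50. Adipocyte markers were highest in pair 15 too. The 9 macrophage markers had medians of 0.62 in pair 15 and -1.20 in pair 3, where Marco was at -6.25, and from -0.50 to -0.10 in the others. The 8 lymphocyte markers had -1.86 in pair 3 and from -0.08 to 0.06 in the others, with Cd79b at -5.18 in pair 3. The part of these cells was not tested.

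Of the proton-coupled carriers, Slc36a1, which acts in lysosomes, was at -0.05, 0.19 and 0.02 in pairs 11, 13 and 15 and at -0.36, -0.22 and -0.39 in pairs 1, 3 and 5. The 4-month pairs lie below all 10-day pairs, and the difference was -0.37 (SE 0.14, adjusted p = 0.933 in limma), although its 2 probes gave -0.16 and 0.26 at 10 days. Slc36a2, known from brown fat and kidney and named here after its values were seen, was at 1.99 in pair 15, with 2.25 and 1.72 on the 2 arrays, and from -0.58 to 0.19 in the other pairs. Slc7a10, an exchanger of small neutral amino acids known from white adipocytes, was at 0.18, -0.03 and 0.61 in pairs 11, 13 and 15 and at -0.11, -0.61 and -0.27 in pairs 1, 3 and 5, a difference of -0.58 (SE 0.21, adjusted p = 0.933 in limma). The 9 adipocyte markers had a median of 1.63 in pair 15 and from -0.30 to 0.09 in the others, with Adipoq at 5.13 and Ucp1 at 2.08 in pair 15. The part of fat tissue in these values was not tested.

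**Figure D3:**
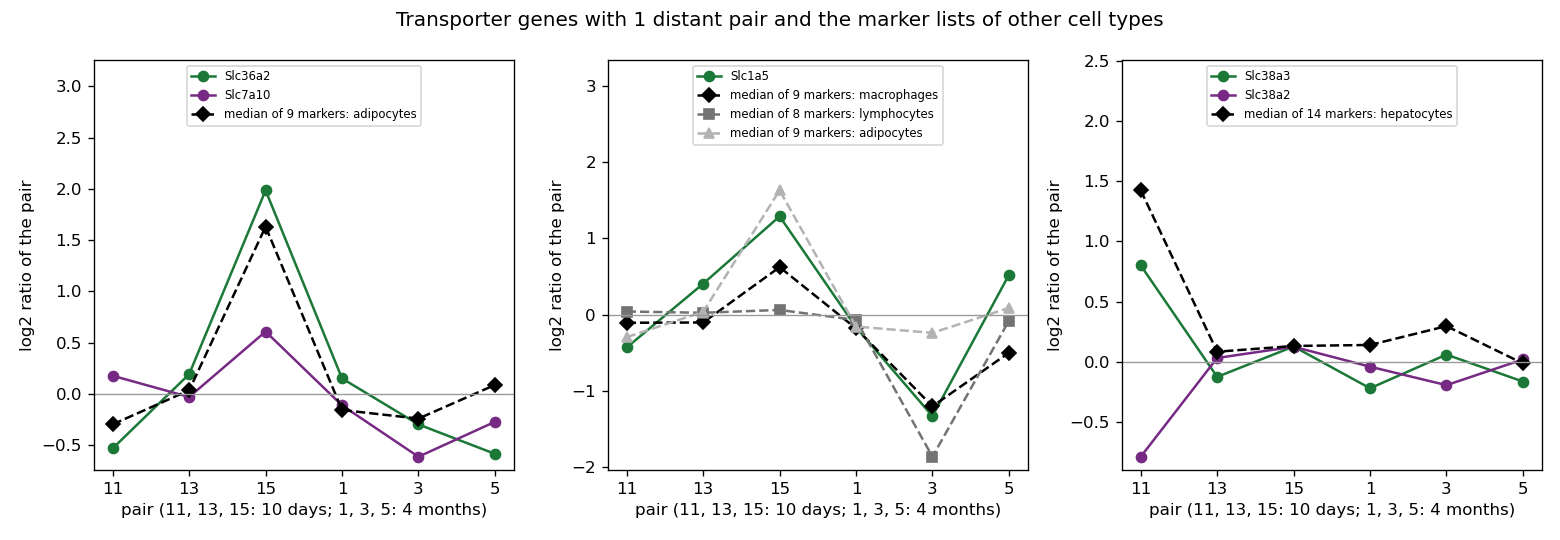
Log2 ratio in each of the 6 pairs (sign as deposited; lines only join the points of a gene or list) of Slc36a2, Slc7a10, Slc1a5, Slc38a3 and Slc38a2, with the median of the marker genes of adipocytes, macrophages, lymphocytes or hepatocytes dashed beside them. Slc36a2 and the adipocyte median reach 1.99 and 1.63 in pair 15, Slc1a5 and the macrophage median -1.33 and -1.20 in pair 3, and Slc38a3 and the hepatocyte median 0.80 and 1.42 in pair 11.

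Slc43a3, which carries purine nucleobases, was at 0.37, 0.11 and 0.20 in pairs 11, 13 and 15 and at 0.35, 0.26 and 0.18 in pairs 1, 3 and 5. It was positive in 6 of 6 pairs, with a mean of 0.25 (SE 0.07, adjusted p = 0.184 in limma). The mean of its arrays was 0.43 with the transgenic sample in Cy3 but 0.07 in Cy5, and 4 of its 6 pairs had the same sign on both arrays. The 31 members outside the naming rule had means from -0.17 to 0.15 and an unadjusted p of 0.0658 or more in every comparison. Of their 183 pair values 175 were under 0.5 in size.

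At 10 days 0 of 61 members and 0% of all features passed the adjusted p of 0.05 in limma. At an unadjusted p under 0.05 there were 3 members (4.92%, against 8.34% of all features), Slc38a5, Slc7a8 and Slc1a2, all negative, as were 4.09% of all features; without pair 15 there were 5. A mean above 0 was seen for 30 members (49.2%, against 48.6%), a size of 0.5 or more for 2 (3.28%, against 2.7%), and the same sign in all 3 pairs for 18 (29.5%, against 32.8%). At 4 months 0 of 61 passed (0% of all features), and 11 members (18%, against 12.3%) had an unadjusted p under 0.05, 5 positive and 6 negative, beside 6.09% and 6.21% of all features. A mean above 0 was seen for 34 members (55.7%, against 48%), a size of 0.5 or more for 4 (6.56%, against 5.14%), and the same sign in all 3 pairs for 21 of 58 (36.2%, against 35.6%). The median of the members was -0.01 at 10 days and 0.01 at 4 months, beside -0.01 for all features at both.

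For the difference between ages 0 of 61 members and 0% of all features passed the adjusted p in limma, and 5 members (8.2%, against 4.56%) had an unadjusted p under 0.05, which became 2 without pair 15. The 5 were Slc38a5 and Slc1a2, with 4 months above (2.17% of all features), and Slc6a19, Slc7a10 and Slc36a1, with 4 months below (2.39%). A difference of 0.5 or more in size was seen for 7 members (11.5%, against 6.3%). The 3 pairs of one age did not overlap with those of the other in 9 of 58 members (15.5%, against 10.4% of all features). They were the 5 just named together with Slc6a4, Slc6a17, Slc36a4 and Slc7a13. In 5 of the 9 the 4-month pairs lay above (5.06% of all features) and in 4 below (5.33%). In Slc38a5 and Slc1a2 all pairs were negative at 10 days and positive at 4 months, as in 1.31% of all features, and Slc7a13 had the reverse, as in 1.32%.

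Of 363 member pair values, 175 (48.2%) had the same sign on both arrays, against 51.2% of 127776 over all features, and the 2 arrays differed by a median of 0.32 against 0.33. By pair the share for members ran from 34.5% in pair 1 to 59.0% in pair 3. Among the 32 member values of 0.5 or more in size, 29 (90.6%) had the same sign on both arrays, against 93.8% of such values over all features. Since the size is that of the mean of the same 2 arrays, large values share a sign more often by construction.

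**Figure D4:**
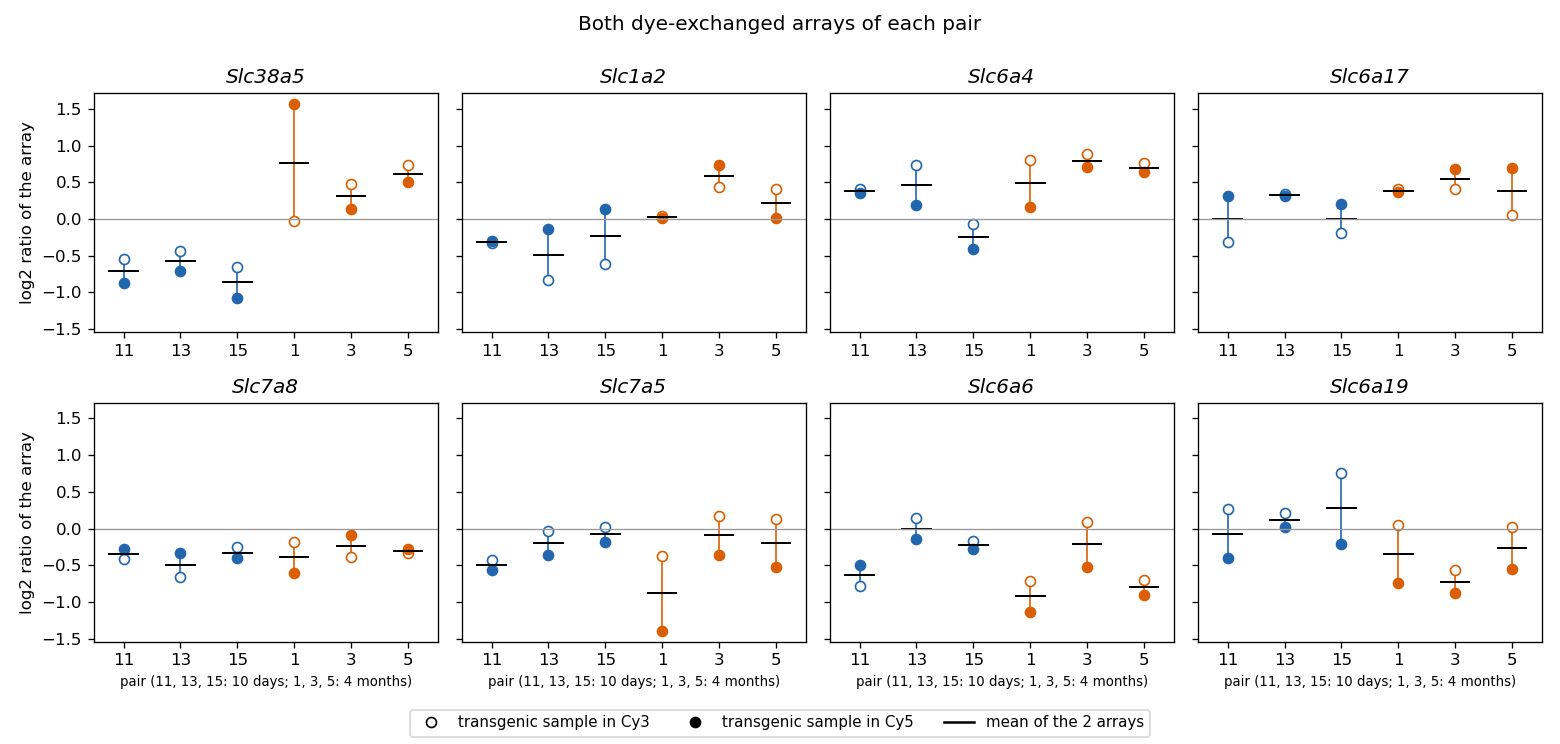
Log2 ratio (sign as deposited, dye trend removed) on each of the 2 arrays of each pair for 8 transporter genes; open circles have the transgenic sample in Cy3, filled circles in Cy5, bars mark their mean, and colours mark the age. Slc7a8 is negative on all 12 arrays, and the arrays of Slc38a5 in pair 1 lie far apart at -0.03 and 1.56.

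Other genes of the same pathways were read from 5 lists, and none of their members passed the adjusted p of 0.05 over all pairs. All 8 vesicular transmitter carriers had a positive mean, with a median of 0.19 against -0.01 for all features, and 4 had an unadjusted p under 0.05, where 7.52% of all features were positive at that threshold. The 4 were the monoamine carriers Slc18a1 at 0.44 and Slc18a2 at 0.37, the glutamate carrier Slc17a6 at 0.31 and the acetylcholine carrier Slc18a3 at 0.24. Slc18a1 and Slc18a2 are also among the 17 chromaffin cell markers, whose median was 0.31, and the part of chromaffin cells was not tested here either. Of 15 amino acid carriers of other families 6 means were positive and 9 negative, with a median of -0.02. The largest was Slc16a10, a carrier of aromatic amino acids, positive in 6 of 6 pairs from 0.35 to 1.04, with a mean of 0.61 (SE 0.10, adjusted p = 0.0882 in limma). The 27 tested genes of the amino acid shortage response driven by ATF4 were 13 positive and 14 negative, with 1 and 5 at an unadjusted p under 0.05, beside 7.52% and 7.45% of all features. The positive one was Psat1, a serine synthesis enzyme, at 0.56. Of the 5 negative ones the alanine aminotransferase Gpt2 was at -0.92, negative in 5 of 6 pairs, and Chac1, which degrades glutathione, at -0.66. The 26 genes of amino acid sensing by mTORC1 were 11 positive and 15 negative, with a median of -0.05. The 16 enzymes of glutamate, GABA and glutathione were 7 positive and 9 negative with a median of -0.03, and Gad1, which makes GABA, was at 2.48 in pair 1.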

How the data were processed

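Per spot, the authors deposited a log2 ratio between the 2 channels, and neither their direction nor any normalization, scanner or image analysis is given in the sources used here. On 6 arrays stored at full precision, 2 raised to the deposited log2 value was a ratio of whole numbers up to 65535 for 100% of spots (relative tolerance 1e-13), which gave each probe a signal, the 75th percentile over those arrays. Medians of the deposited arrays lay between -0.681 and -0.223 where Cy3 labelled the transgenic sample and between 0.741 and 1.50 where Cy5 did, so the values were not centred. A loess fit of ratio on log2 signal (span 0.3) was subtracted from every array. Probes of a gene were averaged, both arrays of a pair were required and averaged, and at least 2 pairs per group were needed. Gene names came from the platform annotation, updated through gene identifiers for 20456 probes and by symbol for 220, with 406 kept as given, 30 naming several genes and 4232 none.

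limma 3.58.1 (R 4.3.3, statmod 1.5.0) fitted group means with moderated variances, with Benjamini-Hochberg adjustment over 21513 features. Replicates are separate mice by their numbers. The procedure was tested on simulated data. The named members were the 8 with the smallest p in each comparison and 23 fixed ones, 30 in all; Slc36a2, Slc7a13 and others outside this rule were named after their values were seen. Members, lists and tests were chosen with earlier results of these data known. Alternatives covered the correction, probe choice, filters, single dye orientations, sex, moderation, all 12 arrays with the pair as a random block, and each pair left out.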

Additional observations from a re-analysis of the deposited data

Results flagged for a closer look

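In 3 members every 10-day pair had one sign and every 4-month pair the other. For Slc38a5 the difference, 4 months minus 10 days, was 1.28 (adjusted p = 0.933 in limma). For Slc1a2, the glutamate carrier, it was 0.617 (adjusted p = 0.933), and one of its 10-day pairs, pair 15, had arrays of opposite sign, at -0.61 and 0.14. For Slc7a13, a carrier of the cystine and acidic amino acid group, it was -0.164 (adjusted p = 0.933), from 0.03, 0.12 and 0.21 in pairs 11, 13 and 15 to -0.03, -0.04 and -0.07 in pairs 1, 3 and 5, and only 1 of its 6 pairs had the same sign on both arrays. Negative at 10 days and positive at 4 months occurred in 1.31% of all features, and the reverse in 1.32%. None of the 3 differences passed the adjusted threshold.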

How the results depend on the processing

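No paired analysis was possible because the groups share no replicate numbers. With 3 pairs per group and dye swaps that often disagreed in sign, small ratios cannot be resolved. Of 606 values of single genes under the alternatives, 580 kept their direction and side of the threshold, 22 newly passed it and 4 turned sign; none could lose a call, since no member had one. With the values as deposited, which shifts the median of all features to 0.28 over all pairs, 0.20 at 10 days, 0.36 at 4 months and 0.17 for the difference, the share of positive members over all pairs moved from 45.9% to 95.1%. Slc38a9 then became 0.0856 over all pairs, and at 4 months Slc7a8 became 0.0906 and Slc36a1 0.00962. Slc6a19os became -0.12 with the transgenic sample in Cy5 only.

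Members past the adjusted p over all pairs (0) became 17 with the values as deposited (27.7% of all features), 4 with Cy3 arrays only (6.46%), 10 with Cy5 arrays only (15.9%) and 3 with all 12 arrays, a dye term and the pair as a random block. In that last fit the correlation within pairs was 0.30, the 3 were Slc6a4, Slc7a8 and Slc6a6, and 3.61% of all features were called. Single dye orientations keep any dye effect of a gene in the mean, and uncorrected values keep the dye trend. Members with an unadjusted p under 0.05 over all pairs (7) became 30 as deposited (48.9% of all features), 17 with Cy3 or with Cy5 alone (25.9% and 34.1%) and 11 with the random block (16.9%). At 10 days (3) they became 6 with median centring (10.3%), 8 as deposited (12.1%), 8 with Cy3 only (14.6%), 7 with Cy5 only (18.9%) and 5 without moderation (7.85%). At 4 months the adjusted count (0) became 7 as deposited (11.8%), 4 with Cy5 only (4.23%) and 1 with the random block (1.34%), and the unadjusted count (11) became 28 as deposited (42.5%). For the difference the adjusted count (0) became 1 as deposited (0.0744%), Slc38a5 with an adjusted p of 0.0308; over 19 alternatives its adjusted p ran from 0.0308 to 0.999 and its difference from 0.94 to 1.62. Leaving out each pair gave 5 to 8 members with an unadjusted p under 0.05 over all pairs, 3 to 5 at 10 days, 8 to 11 at 4 months and 2 to 7 for the difference, the highest at 10 days and the lowest for the difference without pair 15; the adjusted counts stayed at 0.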

Other observations

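Some members lie next to each other in the RefSeq gene order, and their values in the pairs where one was extreme are given here. Slc36a3, Slc36a2 and Slc36a1 follow each other, and in pair 15 they were at -0.13, 1.99 and 0.02. Slc38a1, Slc38a2 and Slc38a4 are also neighbours, and in pair 11 they were at 0.22, -0.79 and -0.18. Slc43a1, separated from Slc43a3 by 1 coding gene, was at 0.71 in pair 1, where Slc43a3 was at 0.35, and at -0.57 in pair 15, where Slc43a3 was at 0.20. Only 1 of the 6 pairs had the same sign on both arrays for Slc43a1. The neighbours Slc6a13 and Slc6a12 had means over all pairs of -0.01 and -0.08, Slc7a6 and Slc7a6os of -0.01 and -0.17, and Slc6a20b and Slc6a20a of 0.21 and -0.07.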
